A study of Caenorhabditis elegans with 9 samples.

Results

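The 8 genes described here encode cysteine proteases of the papain family in the nematode Caenorhabditis elegans, and they were chosen by symbol from 46926 annotated genes. They are the cathepsin B type genes cpr-1, cpr-2, cpr-3, cpr-4, cpr-5 and cpr-6, the cathepsin L gene cpl-1 and the cathepsin Z gene cpz-1. Papain-family proteases are made as inactive precursors with an N-terminal propeptide, are activated when the propeptide is removed, and cut proteins with a cysteine in the active site. In the worm, several cpr genes are known from the gut, where such enzymes digest bacterial food and break down protein in lysosomes. cpl-1 is known for the processing of yolk protein in embryos, and cpl-1 and cpz-1 for roles in moulting, so that neither is a gene of the intestine alone.

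Poly(A) RNA was sequenced from whole worms of 3 genotypes labelled PATR1, UNC5 and WT, with 3 libraries each. Wild type worms and mutants with a stop codon at Cys348 of unc-5, a gene for a receptor of the guidance cue netrin, are the strains named in the design text, each collected as a synchronised population of young adults, and the stage of a further genotype is not given separately. That allele is not tied by the labels to UNC5 or to PATR1, the meaning of PATR1 is not given, and no agent is named. Since nothing says that replicates came from separate cultures, a p-value here speaks of the spread among libraries that may be technical repeats.

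The libraries held 38673206 to 60642199 reads counted to genes on the reverse strand, and 17512 genes had enough counts to be tested. unc-5 averaged 13.5 ± 0.63 CPM in PATR1 and 10.11 ± 0.224 CPM in UNC5, against 17.8 ± 0.968 CPM in WT (SD, n = 3 each). CPM scales the count of a gene to the size of its library, and levels are in CPM unless given per kilobase of exon. Differences are log2 fold changes ± SE. "Rose", "fell", "higher" and "lower" of a tested gene mean a Benjamini-Hochberg adjusted p below 0.05 over all 17512 genes, and "beyond 2-fold" adds an absolute log2 fold change above 1, the threshold in the design text. Changes were common in these data, and the median gene lay at -0.11 in PATR1 against WT and at 0.16 in UNC5 against WT. The centre is less certain in UNC5, where the median was 0.00 without the low-count filter: 8727 genes were higher and 4728 lower with the filter, and 6115 higher and 6717 lower without it.

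All 14 intestinal marker genes looked up, among them the GATA factor gene elt-2 and the gut esterase gene ges-1, were detected in every group. Their summed level was 2331 to 2429 CPM in PATR1 and 3150.1 to 3251 CPM in UNC5, against 3327 to 3489 CPM in WT. In PATR1 all 14 were lower than in WT (median -0.58), and so they were with library sizes alone or relative log expression factors. In UNC5 9 were lower, 4 higher and 1 did not pass (median -0.14), and 1 was higher and 10 lower with relative log expression factors or library sizes alone. The markers did not move alike. They ran from -1.42 (pept-1) to -0.10 in PATR1 and from -1.18 (pbo-4) to 0.66 (pho-1) in UNC5. A ratio to their sum therefore depends on the markers chosen. In whole animals, fewer cells of a type and less RNA per cell cannot be told apart, and the tissue in which each cathepsin gene was transcribed was not measured. Markers of other tissues shifted in part. The summed level of 5 pharyngeal muscle genes was 263 to 279 CPM in PATR1 and 346 to 352 CPM in UNC5, against 611 to 640 CPM in WT, and that of 7 oocyte genes was 4317 to 4385 CPM in PATR1 and 3430 to 3515 CPM in UNC5, against 2067 to 2164 CPM in WT. The 8 epidermal genes summed to 1542 to 1555 CPM in PATR1 and 2132 to 2315 CPM in UNC5, against 1941 to 2023 CPM in WT. These sums join genes that moved in opposite directions. In UNC5 5 were higher than in WT, among them rol-6 (1.30 ± 0.0347), and 2 lower, among them col-19 (-1.43 ± 0.0325). In PATR1 1 was higher and 5 lower. Body wall muscle genes, 5 in number, summed to 5597 to 5877 CPM in PATR1 and 7959 to 8192 CPM in UNC5, against 7826 to 8317 CPM in WT, so that the UNC5 and WT sums overlapped. Of these 5 genes, 4 were higher and 1 lower in UNC5 than in WT. The 3 coelomocyte genes summed to 33.5 to 34.1 CPM in PATR1 and 30.8 to 32.6 CPM in UNC5, against 33.9 to 35.7 CPM in WT, where PATR1 and WT overlapped. Early embryo genes, 8 in number, of which 5 had enough counts to be tested, were low in all groups. They summed to 10.9 to 11.8 CPM in PATR1 and 10.3 to 11.8 CPM in UNC5, against 3.03 to 3.36 CPM in WT. None of these markers was at 0 in any group, and their part in the cathepsin results was not tested. Unmapped reads were 2.86% to 6.02% of all reads in PATR1 and 0.667% to 0.937% in UNC5, against 0.621% to 0.629% in WT.

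The cathepsin genes changed unevenly in PATR1. cpr-1 and cpr-4 fell several-fold against WT, cpr-3, cpr-5 and cpl-1 fell by less than 2-fold, cpr-6 rose, and cpr-2 and cpz-1 did not pass. That makes 6 of 8 past the adjusted p, where 83.6% of all tested genes passed, 5 of them lower (44.9% of all genes) and 1 higher (38.7%). Beyond 2-fold were 2 of the 8, both lower, where 16.5% of all genes were called, 10.5% lower and 6.02% higher. The median of the 8 log2 fold changes was -0.27, beside -0.11 over all genes.

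**Figure D1:**
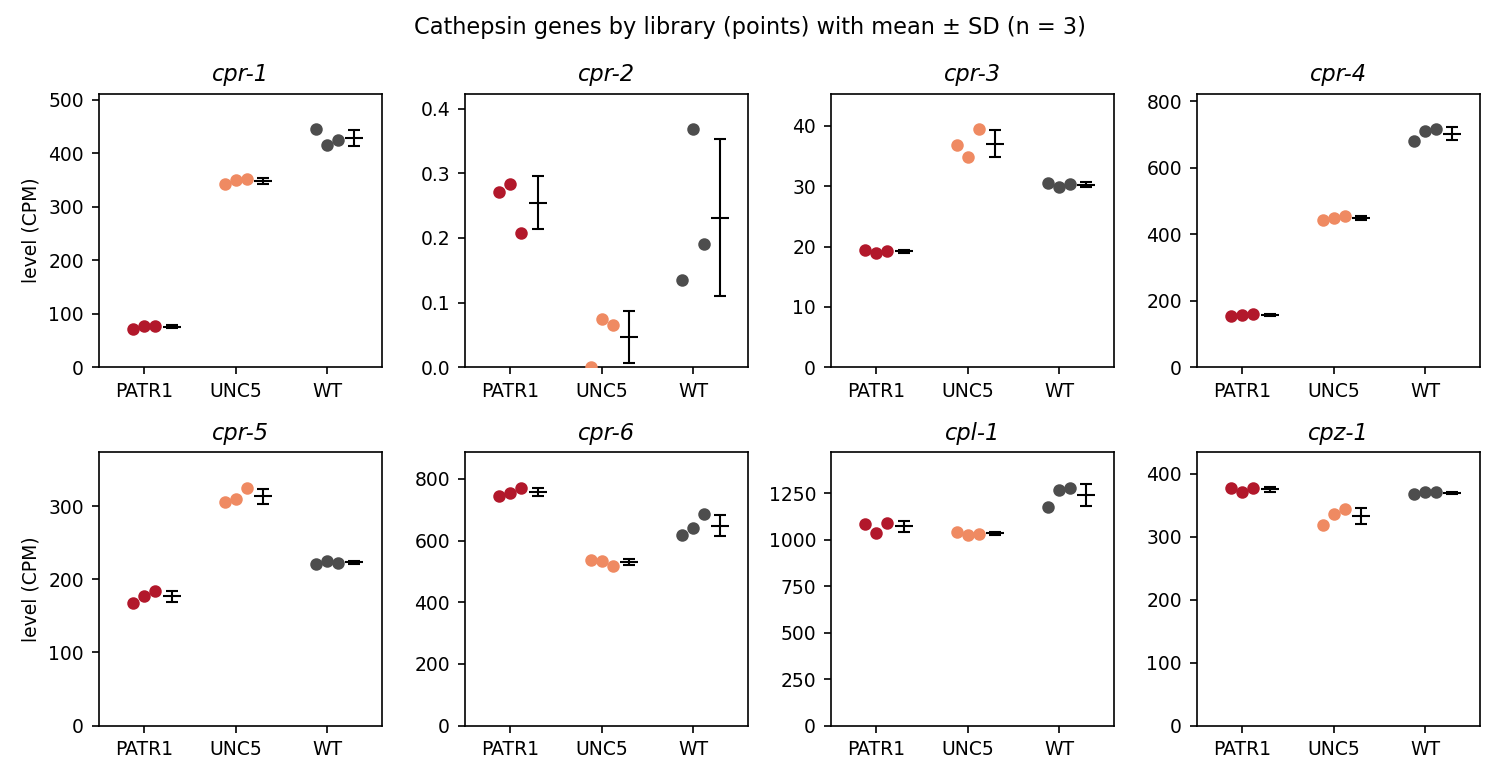
Level in CPM of each of the 8 cathepsin genes in every library of PATR1, UNC5 and WT, with the group mean ± SD (n = 3) as a bar beside the points. Each panel has its own axis from 0. cpr-1 and cpr-4 are lowest in PATR1 (72.1 to 77.5 CPM and 153 to 159.7 CPM), while cpr-3 and cpr-5 are highest in UNC5.

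cpr-1 (WBGene00000781, chromosome V from 11975551 to 11976756 on the plus strand of WBcel235, 3 exons) encodes a gut cysteine protease of the cathepsin B type. The PATR1 libraries held 72.1, 77.3 and 77.5 CPM of it, the UNC5 libraries 342, 351 and 351 CPM, and the WT libraries 445, 415 and 425 CPM. The 3 PATR1 libraries lay far below all others, and the UNC5 libraries lay below WT without overlap. The PATR1 level was 5.66-fold lower than in WT (log2 fold change -2.50 ± 0.0362, adjusted p = 5.92e-33), and 447 of the 17512 genes had a lower log2 fold change. The UNC5 level was 81.3% of that in WT (-0.30 ± 0.0332, adjusted p = 1.12e-09). Set against the intestinal marker sum, cpr-1 came to 3.09% to 3.25% in PATR1 and 10.8% to 10.98% in UNC5, against 11.9% to 13.4% in WT, so that the ratio was 3.96-fold lower in PATR1 than in WT while the marker sum itself was 1.43-fold lower.

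cpr-4 (WBGene00000784, chromosome V from 6614674 to 6615851 on the plus strand, 2 exons) encodes a cathepsin B type protease that is known to be secreted. Its level was 153, 156 and 159.7 CPM in PATR1, 442, 449 and 455 CPM in UNC5, against 679, 711 and 716 CPM in WT. The 3 groups did not overlap and kept the order PATR1, UNC5, WT from low to high. cpr-4 was 4.48-fold lower in PATR1 than in WT (-2.17 ± 0.034, adjusted p = 6.09e-32) and 1.56-fold lower in UNC5 (-0.64 ± 0.0322, adjusted p = 3.39e-18). As a share of the intestinal marker sum it was 6.44% to 6.69% in PATR1 and 13.8% to 14.3% in UNC5, against 20.4% to 20.9% in WT. A piRNA gene lies within cpr-4 on the other strand and shares 21 bases with it, and no other member overlaps an exon of another annotated gene.

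cpr-5 (WBGene00000785, chromosome V from 1132598 to 1134036 on the minus strand, 3 exons), another cathepsin B type gene, moved in opposite directions in the mutant groups. The PATR1 libraries had 168, 178 and 184 CPM and the UNC5 libraries 306, 309 and 325 CPM, against 221, 225 and 223 CPM in the WT libraries. All UNC5 libraries lay above WT and all PATR1 libraries below it. The difference from WT was -0.34 ± 0.0339 in PATR1 (adjusted p = 9.51e-11) and 0.49 ± 0.0335 in UNC5 (adjusted p = 1.14e-14). Relative to the intestinal marker sum the place of PATR1 differed, with 7.21% to 7.7% in PATR1 and 9.52% to 10.2% in UNC5, against 6.45% to 6.65% in WT.

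cpr-3 (WBGene00000783, chromosome V from 15296834 to 15298700 on the minus strand, 4 exons) showed the same order of groups as cpr-5. Values were 19.5, 18.9 and 19.3 CPM in PATR1 and 36.9, 34.9 and 39.4 CPM in UNC5, against 30.6, 29.8 and 30.4 CPM in WT. No groups overlapped. cpr-3 fell in PATR1 (-0.65 ± 0.047, adjusted p = 3.05e-14) and rose in UNC5 (0.29 ± 0.0438, adjusted p = 3.91e-07), both against WT. As a share of the intestinal marker sum it was 0.779% to 0.836% in PATR1 and 1.07% to 1.23% in UNC5, against 0.854% to 0.92% in WT. On that scale PATR1 had 0.91 times the WT ratio.

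cpr-6 (WBGene00000786, chromosome X from 6607207 to 6609045 on the plus strand, 8 exon blocks) was the 1 gene of the 8 that rose in PATR1. Its libraries held 746, 754 and 771 CPM in PATR1 and 536, 534 and 518 CPM in UNC5, against 618, 641 and 685 CPM in WT. Against WT it rose in PATR1 (0.22 ± 0.0355, adjusted p = 9.15e-07) and fell in UNC5 (-0.29 ± 0.0357, adjusted p = 9.22e-09), with no overlap of libraries. The sizes were 1.17-fold higher in PATR1 and 1.23-fold lower in UNC5. They moved with the setting, from 0.10 to 0.25 in PATR1 and from -0.46 to -0.25 in UNC5 on the log2 scale, without a change of direction. As a share of the intestinal marker sum, cpr-6 was 31.04% to 32.3% in PATR1 and 16.2% to 17.02% in UNC5, against 18.4% to 20.03% in WT.

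cpr-2 (WBGene00000782, chromosome V from 16532936 to 16534100 on the minus strand, 3 exons) was close to the limit of detection. It had 12, 11 and 11 reads in the PATR1 libraries, 0, 3 and 3 reads in UNC5, and 8, 22 and 12 reads in WT. In UNC5 replicate 1 a count of 0 allows up to 3 counts, or 0.0764 CPM, by counting error alone. Over all libraries of a group, UNC5 had 0.207 times the WT level (exact 95% counting interval 0.0719 to 0.489; log2 fold change -2.21 ± 0.573, adjusted p = 0.000871). PATR1 and WT overlapped and were not told apart (0.12 ± 0.372, adjusted p = 0.776, with an interval of 1.96 SE from -0.61 to 0.85). cpr-2 passed the low-count filter through its PATR1 and WT libraries, and it failed that filter when UNC5 was fitted with either group alone. Beside this, the summed level of 7 sperm genes was 375 to 377 CPM in PATR1 and 108 to 114 CPM in UNC5, against 507 to 538 CPM in WT, and no sperm marker was at 0. Their part in the cpr-2 result was not tested.

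cpl-1 (WBGene00000776, chromosome V from 16592572 to 16595346 on the minus strand, 4 exon blocks) encodes cathepsin L and had the highest level of the 8 genes per kilobase of exon in each group. PATR1 libraries held 1088, 1039.7 and 1089.9 CPM and UNC5 libraries 1044, 1028 and 1032 CPM, against 1175, 1268 and 1281 CPM in WT libraries. Both mutant groups lay below WT without overlap, by -0.21 ± 0.0364 in PATR1 (adjusted p = 3.79e-06) and by -0.26 ± 0.0364 in UNC5 (adjusted p = 1.08e-07). The yolk protein genes, whose products cpl-1 is known to process, summed to 72739 to 79150.4 CPM in PATR1 and 35051 to 36222 CPM in UNC5, against 60000.4 to 60631 CPM in WT. Of these 6 genes all fell in UNC5, while in PATR1 3 rose and 3 fell, so that the higher PATR1 sum rests on the abundant vit-2 (0.59 ± 0.0437) and vit-6 (0.41 ± 0.0457), and vit-1 fell (-1.12 ± 0.0358). Set against the intestinal marker sum, cpl-1 was 42.8% to 46.7% in PATR1 and 31.6% to 33.2% in UNC5, against 35.3% to 37.5% in WT, so that this ratio was higher in PATR1 than in WT although its level was lower.

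cpz-1 (WBGene00000788, chromosome I from 2686640 to 2689429 on the minus strand, 5 exon blocks) encodes cathepsin Z and varied least. Its level was 378, 371 and 377 CPM in PATR1 and 319, 337 and 343 CPM in UNC5, against 369, 371 and 372 CPM in WT. PATR1 and WT overlapped, and their difference was 0.02 ± 0.032 (adjusted p = 0.584, with an interval of 1.96 SE from -0.04 to 0.08). UNC5 was lower than WT (-0.15 ± 0.0321, adjusted p = 7.50e-05). The ratio of cpz-1 to the intestinal marker sum was 15.3% to 16.2% in PATR1 and 10.12% to 10.7% in UNC5, against 10.6% to 11.1% in WT.

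In UNC5 against WT, all 8 genes passed the adjusted p, where 76.8% of all tested genes did, with 6 lower (27% of all genes) and 2 higher (49.8%). Beyond 2-fold was cpr-2 alone, 1 of 8, where 20.8% of all genes were called, 13.7% lower and 7.09% higher. cpr-2 had 6 reads in UNC5 against 42 in WT, and passed the low-count filter through its PATR1 and WT libraries. With the UNC5 and WT libraries alone it was not tested, and no member was then beyond 2-fold. The median of the 8 log2 fold changes was -0.28, beside 0.16 over all genes. Libraries were fully separate from WT for 6 of 8 members in PATR1 (84% of all genes) and for 8 of 8 in UNC5 (77.9%). With 3 libraries a group, the exact permutation p (two-sided) cannot go below 0.1, and it was 0.1 for every member whose groups were separate.

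**Figure D2:**
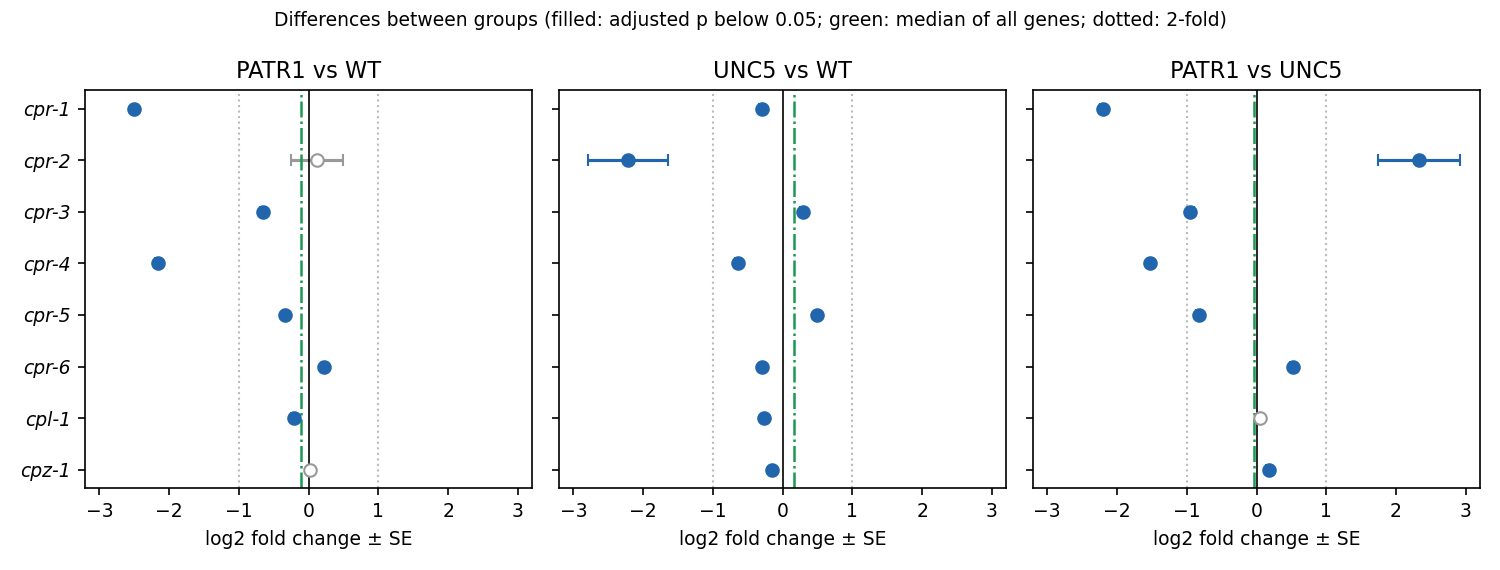
Log2 fold change ± SE of each cathepsin gene for PATR1 against WT, UNC5 against WT and PATR1 against UNC5. Filled points passed an adjusted p of 0.05, the green line is the median of all tested genes and dotted lines mark 2-fold. cpr-1 (-2.50) and cpr-4 (-2.17) lie beyond 2-fold in PATR1 against WT, and cpr-2 has the widest error.

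PATR1 was also compared with UNC5 directly, in the same fit over all 9 libraries, so that the filter, the scaling and the spread rest on WT too. Fitted with the 6 PATR1 and UNC5 libraries alone, cpr-2 was not tested and the other 7 members kept their direction and their side of the threshold. cpr-1 was 4.60-fold lower in PATR1 than in UNC5 (-2.20 ± 0.0362, adjusted p = 5.86e-31) and cpr-4 2.87-fold lower (-1.52 ± 0.0336, adjusted p = 1.81e-27). cpr-3 was 1.93-fold lower in PATR1 (-0.95 ± 0.0476, adjusted p = 5.70e-18) and cpr-5 1.77-fold lower (-0.83 ± 0.034, adjusted p = 2.65e-20). cpr-6 was 1.43-fold higher (0.52 ± 0.0358, adjusted p = 2.18e-14) and cpz-1 1.13-fold higher (0.17 ± 0.0322, adjusted p = 1.53e-05). cpr-2 was higher at 34 reads in PATR1 against 6 in UNC5 (2.33 ± 0.59, adjusted p = 0.000667). cpl-1 did not pass (0.05 ± 0.0365, adjusted p = 0.195, with an interval of 1.96 SE from -0.02 to 0.12), and it passed at 0.10 with relative log expression factors and at 0.20 without a low-count filter. In all 7 of 8 members passed, where 78.7% of all genes did, 4 lower (40.9%) and 3 higher (37.8%), and 3 lay beyond 2-fold, where 20.9% of all genes did, 11.5% lower and 9.46% higher. PATR1 and UNC5 libraries were separate for 7 of 8 members, where 79.5% of all genes were. The median of the 8 log2 fold changes was -0.39, beside -0.04 over all genes.

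**Figure D3:**
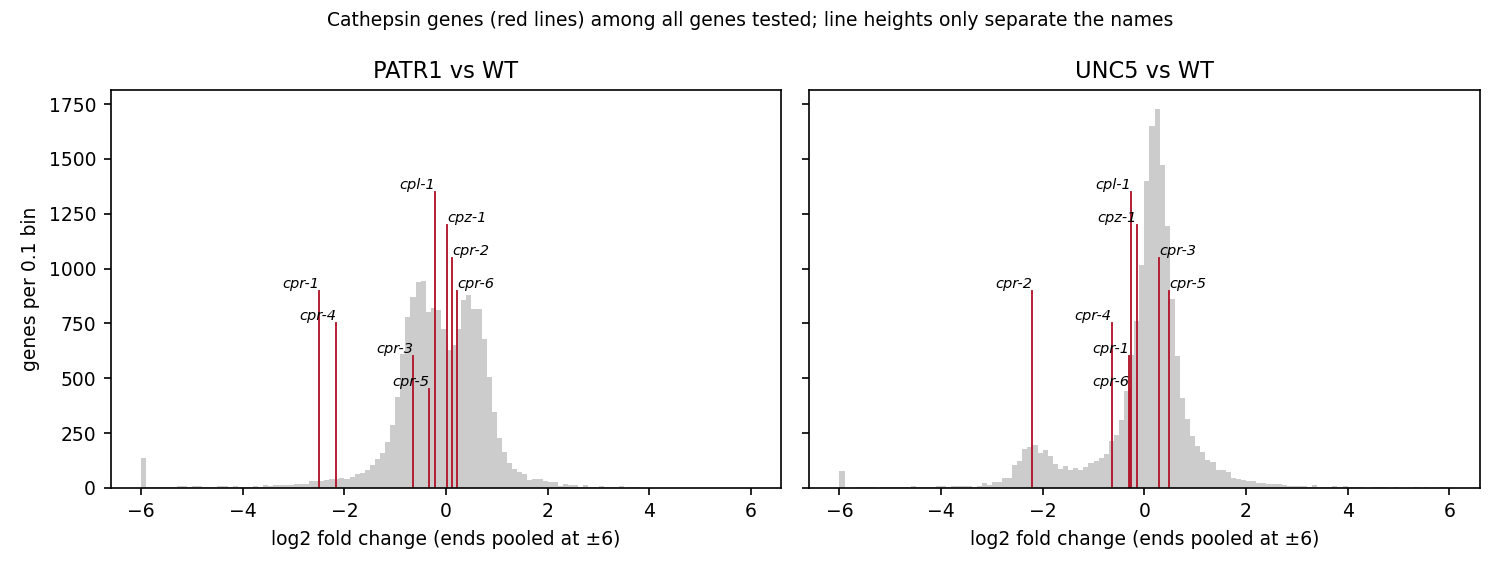
Histograms of the log2 fold changes of all 17512 tested genes for PATR1 against WT and UNC5 against WT, in bins of 0.1, with the 8 cathepsin genes as red lines and values beyond 6 pooled at the ends. In PATR1, cpr-1 and cpr-4 lie in the lower tail, with 447 and 571 genes at lower values, and the other 6 lie between -0.65 and 0.22.

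Per kilobase of exon, the levels of the genes can be set beside each other. In PATR1 the order was cpl-1 (901 ± 23.8 CPM per kilobase), cpr-6 (601 ± 10.4), cpz-1 (378 ± 3.94), cpr-5 (146 ± 6.69), cpr-4 (139 ± 2.82), cpr-1 (70.2 ± 2.86), cpr-3 (14.04 ± 0.205) and cpr-2 (0.239 ± 0.0382; SD, n = 3). In UNC5 it was cpl-1 (869.5 ± 7.29), cpr-6 (420.1 ± 7.84), cpr-4 (398 ± 5.97), cpz-1 (335 ± 12.8), cpr-1 (323 ± 4.8), cpr-5 (260.2 ± 8.48), cpr-3 (27.1 ± 1.68) and cpr-2 (0.0436 ± 0.038). In WT it was cpl-1 (1043 ± 48.8), cpr-4 (622 ± 17.7), cpr-6 (514 ± 26.8), cpr-1 (397 ± 14.1), cpz-1 (373 ± 1.54), cpr-5 (185 ± 1.54), cpr-3 (22.1 ± 0.301) and cpr-2 (0.217 ± 0.114). Neighbours in these orders had libraries that overlapped in a single case per mutant group, cpr-5 and cpr-4 in PATR1 and cpz-1 and cpr-1 in UNC5, and in no case in WT. cpl-1, cpr-3 and cpr-2 kept their places, cpr-4 went to the fifth place in PATR1 against the second in WT, and cpr-1 to the sixth in PATR1 against the fourth in WT.

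The makeup of the family differed with these shifts. cpr-6 held 61.9% ± 0.416 of the summed per-kilobase level of the 6 cathepsin B type genes in PATR1 and 29.4% ± 0.771 in UNC5, against 29.5% ± 0.942 in WT. cpr-4 held 14.3% ± 0.0354 in PATR1 and 27.8% ± 0.185 in UNC5, against 35.7% ± 0.611 in WT. cpr-1 held 7.23% ± 0.173 in PATR1 and 22.6% ± 0.174 in UNC5, against 22.8% ± 1.11 in WT. The summed level of the 6 genes was 1185 ± 26.6 CPM in PATR1 and 1677 ± 13.2 CPM in UNC5, against 2032 ± 43.2 CPM in WT. All 8 genes together summed to 2632 ± 42.7 CPM in PATR1 and 3044 ± 19.4 CPM in UNC5, against 3643 ± 98.2 CPM in WT, which is 72.3% of WT in PATR1 and 83.6% in UNC5.

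**Figure D4:**
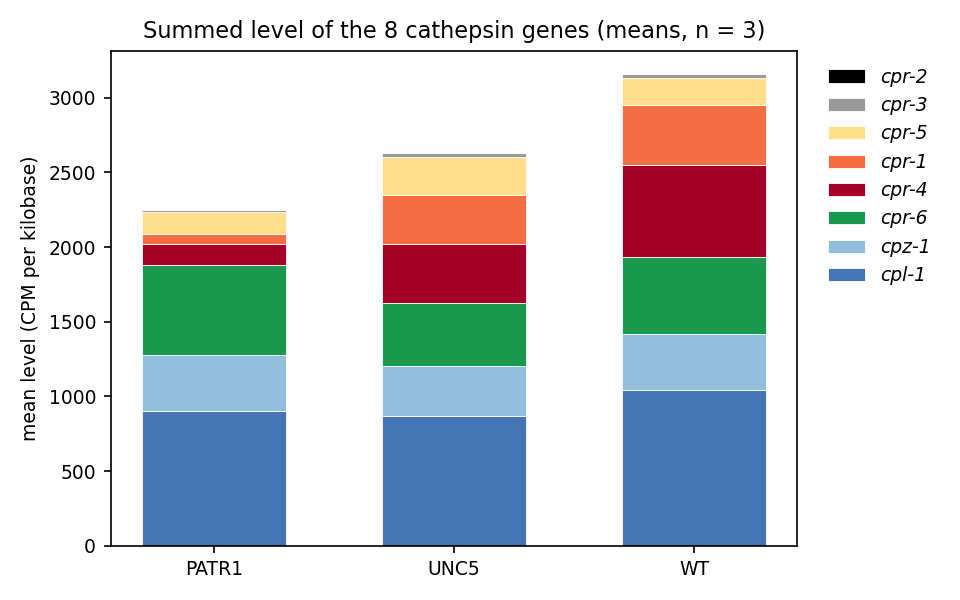
Mean level of the 8 cathepsin genes in CPM per kilobase of exon (n = 3), stacked by gene for PATR1, UNC5 and WT. The cpr-4 and cpr-1 segments are narrowest in PATR1, and cpr-2 is too low to be seen.

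Of 20 other papain-family genes looked up, 16 had enough counts to be tested. In PATR1 against WT 8 were lower, 3 higher and 5 did not pass (median -0.36), and in UNC5 against WT 7 were lower, 6 higher and 3 did not pass (median -0.12). The highest of them per kilobase was cpr-9, a further cathepsin B type gene, at 781 ± 38.6 CPM in PATR1 and 949 ± 17.3 CPM in UNC5, against 811 ± 16.8 CPM in WT. It lies 26296 bases from cpr-1 on chromosome V and did not share its fall: cpr-9 did not pass in PATR1 (-0.05 ± 0.036, adjusted p = 0.164) and rose in UNC5 (0.23 ± 0.036, adjusted p = 1.17e-06). cpz-2, a second cathepsin Z gene, fell in PATR1 (-0.58 ± 0.0322, adjusted p = 3.42e-17) and rose in UNC5 (0.30 ± 0.0314, adjusted p = 2.49e-10). tag-196, a cathepsin F homolog, rose in UNC5 (0.72 ± 0.0353, adjusted p = 2.08e-18) and did not pass in PATR1 (-0.05 ± 0.0365, adjusted p = 0.215). Among those beyond 2-fold in UNC5, F32H5.1 was higher (1.26 ± 0.0388), and it also rose in PATR1 (0.48 ± 0.0402). K02E7.10 was higher too (2.25 ± 0.131), at 1.22 ± 0.181 CPM in PATR1 and 4.14 ± 0.276 CPM in UNC5, against 0.866 ± 0.187 CPM in WT. With unstranded counts its UNC5 change was 1.25, and in PATR1 its rise of 0.52 turned to -0.34. Y51A2D.8 (-1.80 ± 0.226) and tag-329 (-2.63 ± 0.389) were lower. Y51A2D.8 and tag-329 also fell in PATR1 (-2.28 ± 0.239 and -2.90 ± 0.397), and their mean was 1.23 CPM or less in each group.

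Of the papain-family genes tested, the largest log2 change against WT in both mutant groups was that of W07B8.4, the neighbour of cpr-5. W07B8.4, cpr-5 and cpr-8 follow one another on chromosome V from 1130112 to 1139182, with 667 bases between W07B8.4 and cpr-5 and 565 bases between cpr-5 and cpr-8. W07B8.4, on the same strand as cpr-5, averaged 0.697 ± 0.0663 CPM in PATR1 and 1.72 ± 0.0844 CPM in UNC5, against 25.9 ± 0.564 CPM in WT. It was 37.4-fold lower in PATR1 (-5.22 ± 0.087, adjusted p = 3.39e-31) and 14.99-fold lower in UNC5 (-3.90 ± 0.0742, adjusted p = 1.10e-29). cpr-8, on the other strand, was higher than in WT in both groups, at 9.17 ± 0.347 CPM in PATR1 and 12.23 ± 0.943 CPM in UNC5, against 7.65 ± 0.427 CPM in WT. Its rise in PATR1 did not pass with library sizes alone (0.14). The 3 neighbours thus followed 3 different patterns.

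**Figure D5:**
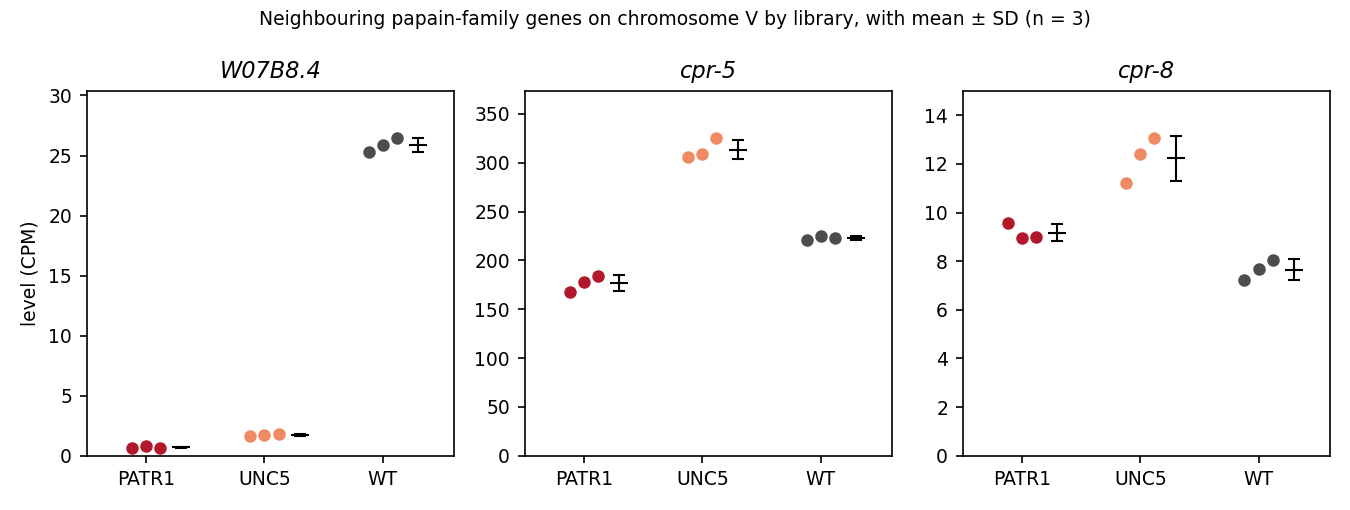
Level in CPM of the neighbouring papain-family genes W07B8.4, cpr-5 and cpr-8 in every library of PATR1, UNC5 and WT, with the group mean ± SD (n = 3). Each panel has its own axis from 0. W07B8.4 is below 2 CPM in all libraries of both mutant groups and above 25 CPM in WT, cpr-5 is low in PATR1 and high in UNC5, and cpr-8 is lowest in WT.

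Genes of protease inhibitors and of another protease class changed in both directions. Of 8 genes for cystatins and serpins, 4 were lower and 2 higher in PATR1 against WT, and 3 lower and 3 higher in UNC5. cpi-1, which encodes a cystatin, an inhibitor of papain-family proteases, averaged 132 ± 3.76 CPM in PATR1 and 102 ± 2.41 CPM in UNC5, against 141 ± 8.64 CPM in WT (-0.09 ± 0.036, adjusted p = 0.0232, and -0.46 ± 0.0366, adjusted p = 1.44e-12). The serpin gene srp-3 fell in PATR1 (-2.36 ± 0.105) and UNC5 (-1.31 ± 0.092), while srp-7 rose (0.37 ± 0.0312 and 0.43 ± 0.0313). The aspartyl proteases, another protease class known from lysosomes and the gut, were split, with 5 of 12 higher and 5 lower in each mutant group. Among them asp-12 rose in PATR1 (1.74 ± 0.0511) and UNC5 (1.77 ± 0.0514) and asp-8 fell (-2.08 ± 0.0527 and -1.74 ± 0.0514).

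Of 29 other lysosomal hydrolase genes, 20 were lower and 7 higher in PATR1 against WT (median -0.42, beside -0.11 over all genes, of which 44.9% were lower), and 18 were lower and 10 higher in UNC5 (median -0.25, beside 0.16 over all genes, of which 27% were lower). The lysosomal lipase homolog genes lipl-2 (-2.21 ± 0.0538), lipl-1 (-1.84 ± 0.0477) and lipl-5 (-1.55 ± 0.0379) had the smallest adjusted p of this list in PATR1. These lipase genes fell in UNC5 too (-1.92 ± 0.0527, -1.85 ± 0.0483 and -1.76 ± 0.0384). ctsa-4.1, a serine carboxypeptidase gene related to cathepsin A, rose in PATR1 (1.36 ± 0.0371) and UNC5 (1.49 ± 0.0371). Genes of the lysosome membrane, its proton pump and the gut granules had 16 lower and 14 higher of 38 in PATR1 (median 0.03), and 6 lower and 30 higher in UNC5 (median 0.25, beside 0.16 over all genes), with no gene beyond 2-fold. Without the low-count filter the UNC5 count was 8 lower and 17 higher. haf-4 and haf-9, which encode transporters of the gut granule membrane, fell in PATR1 (-0.92 ± 0.0352 and -0.86 ± 0.0327) and by less in UNC5 (-0.08 ± 0.0341 and -0.11 ± 0.0318). The lysosomal channel gene cup-5 rose in PATR1 (0.81 ± 0.0344) and UNC5 (0.47 ± 0.035). Of 10 regulators of gut and lysosome genes, 5 were higher and 5 lower in PATR1 against WT, and 6 higher and 2 lower in UNC5. The transcription factor genes mxl-2 and pqm-1 rose in PATR1 (0.74 ± 0.0438 and 0.57 ± 0.0358) and in UNC5 (0.70 ± 0.0442 and 0.86 ± 0.0355). hlh-30, the worm TFEB homolog that drives lysosome genes, averaged 89.8 ± 1.54 CPM in PATR1 and 121.9 ± 3.23 CPM in UNC5, against 125 ± 4.8 CPM in WT, and fell in PATR1 (-0.48 ± 0.0332, adjusted p = 1.11e-14). mxl-3, which encodes a repressor of lysosomal lipase genes, was lower in PATR1 (-0.44 ± 0.0433) and higher in UNC5 (0.44 ± 0.041).

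The genes whose pattern was nearest to that of a member were found from the root-mean-square difference of log2 CPM over the 9 libraries, each gene centred on its mean, among 6761 named genes of at least 5 CPM. For cpr-1 they were ugt-65 (0.0508), flp-33 (0.119) and col-147 (0.128), and for cpr-4 clc-11 (0.0686), nhr-269 (0.069) and pho-8 (0.0953). For cpr-3 they were lgc-50 (0.045), lron-9 (0.049) and the cathepsin Z gene cpz-2 (0.0557), and for cpr-5 cdr-2 (0.0389), lec-9 (0.0401) and fipr-21 (0.0423). cpr-6 was nearest to nkcc-1 (0.0425), hsp-110 (0.0434) and tpp-2 (0.0445), cpl-1 to oatr-1 (0.0306), stau-1 (0.0327) and ogdh-1 (0.0333), and cpz-1 to tkt-1 (0.0202), pdi-1 (0.0232) and ile-1 (0.0335). The low-count gene cpr-2 had no near match, and its nearest were cylc-1, nspd-2 and msrp-1 at 0.482 to 0.491.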

How the data were processed

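Messenger RNA was measured in 9 libraries of whole worms. Each deposited file holds raw counts of reads for every gene, produced by the authors in STAR 2.7.11b on WBcel235 after FastQC 0.11.9 and cutadapt 3.5, per the submitters' processing notes. Counts of the reverse strand were taken, since their total exceeded that of the other strand 41.9 to 57.1 times. Ensembl release 115 gave positions, symbols and exon lengths on WBcel235 for 46918 of the 46926 genes. Multimapping reads (3.12% to 4.96% of all reads) are in no gene's count, so reads shared by near-identical copies are lost.

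The low-count filter was filterByExpr of edgeR 4.0.16 (R 4.3.3). TMM factors were 0.954 to 1.04, and 1 robust edgeR quasi-likelihood model was fitted over all 9 libraries, with Benjamini-Hochberg adjustment over all tested genes of a comparison. SEs are the absolute log2 fold change over the root of its F statistic. An x-fold value divides the groups' pooled counts, each over its scaled depth. Counting intervals and the limit of 3 counts cover counting error only.

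The members, gene lists and markers were chosen with earlier results of these data known. Of each list, the text names genes among the 3 with the smallest adjusted p per mutant group, and any other papain-family gene beyond 2-fold. The intestinal markers elt-2 and ges-1 were named outside this rule, for their detection only. cpr-9 and cpr-8 were named after their values were seen, as the highest of the list and as the neighbour of cpr-5. The listed symbols asp-10, bus-8 and vet-4 matched no gene. Alternatives were library sizes alone, relative log expression factors, other low-count filters, the Wald test of DESeq2 1.42.0, unstranded counts, 6 libraries, a replicate block and leaving out each library. Sequences of the genes and proteins were not used here. Python 3.11.15 with pandas 2.3.3 and matplotlib 3.10.9 drew the plots.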

Additional observations from a re-analysis of the deposited data

Results flagged for a closer look

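The effect of the mutant group relative to WT passed the test in both groups with opposite signs for 3 cathepsin genes. The share of all tested genes with opposite signs is not given here. Since opposite signs set PATR1 and UNC5 apart, the direct test of PATR1 against UNC5 was near certain to pass and is not separate support. It passed for each gene in the fit over all 9 libraries, and with the 6 PATR1 and UNC5 libraries alone (-0.95, -0.83 and 0.51). The difference of PATR1 minus UNC5 was -0.95 on the log2 scale for cpr-3 (1.93-fold lower in PATR1, in 3 of 3 libraries), -0.83 for cpr-5 (1.77-fold lower, in 3 of 3) and 0.52 for cpr-6 (1.43-fold higher, in 3 of 3).

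Reads on the strand opposite to the 8 genes, which entered the comparisons only in the alternative with unstranded counts, were more frequent in the mutant groups. They came to 0.156% of the reverse-strand reads in PATR1 (0.124% to 0.181% per library) and to 0.329% in UNC5 (0.262% to 0.365%), against 0.0494% in WT (0.0352% to 0.0577%). Other well-counted genes with no annotated gene on the other strand, 2730 in number, had medians per library of 0.115% to 0.166% in PATR1 and 0.369% to 0.52% in UNC5, against 0.0425% to 0.0745% in WT, so the difference was not particular to the cathepsin genes. Reads in no annotated gene were 0.678% to 0.748% of all reads in PATR1 and 1.11% to 1.32% in UNC5, against 0.582% to 0.647% in WT. Their part in the opposite-strand reads was not tested.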

How the results depend on the processing

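Over 17 alternative settings, 326 of 331 tested values for the 8 genes kept their side of the adjusted p of 0.05. Settings in which cpr-2 was not tested are not among the 331. Of the values tested, none that had passed was lost or reversed, and 5 came to pass: cpl-1 in PATR1 against UNC5 with relative log expression factors (0.10), with DESeq2 (0.10) and without a low-count filter (0.20), and cpz-1 in PATR1 against WT with library sizes alone (-0.10) and with at least 5 CPM in 3 libraries (-0.09), the last 2 opposite in sign to the 0.02 reported. Small differences depend on the centring: the median of all genes in UNC5 against WT was 0.16, and 0.06 with relative log expression factors, 0.00 without a filter and 0.01 with the 6 libraries compared, where 6222 genes were higher and 6279 lower. In PATR1 against WT it was -0.11, and -0.23 with library sizes alone. Beyond 2-fold were 3645 genes in UNC5 against WT, 2885 in PATR1 against WT and 3666 in PATR1 against UNC5. With at least 5 CPM in 3 libraries, which left 11491 genes, these were 1615, 1387 and 1842. Under that filter, and with the 6 libraries compared, cpr-2 was not tested, so that 0 cathepsin genes were beyond 2-fold in UNC5 against WT in place of 1, and 2 in PATR1 against UNC5 in place of 3. With library sizes alone the PATR1 against UNC5 count was 4, as cpr-3 reached -1.02. Leaving out each library in turn left the cathepsin counts at 1 in UNC5 against WT, 2 in PATR1 against WT and 3 in PATR1 against UNC5. cpr-2 ranged from -2.63 (without UNC5 replicate 2) to -1.70 (without UNC5 replicate 1) in UNC5 against WT, and from 1.81 (without UNC5 replicate 1) to 2.74 (without UNC5 replicate 2) in PATR1 against UNC5. Same-numbered libraries did not deviate together over all tested genes (correlations -0.0488 to 0.0459), which cannot exclude a shared batch that touched few genes. A replicate block gave 3646, 2880 and 3664 genes beyond 2-fold and changed no call of a cathepsin gene. The depth limits cpr-2 alone of the 8 genes.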
